A study of Mus musculus with 2 samples.

Results

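Fibroblasts that carry transcripts of Clec3b, Inmt or Pcolce2 were examined among the dissociated cells of the celiac and superior mesenteric ganglia of mice. A cell was taken as a fibroblast when Dcn, Lum, Col1a1 and Pdgfra together gave at least 20 of every 10000 unique molecular identifiers (UMIs, counts of single captured transcripts) of that cell. It was kept when Clec3b, Inmt and Pcolce2 together gave at least 5 per 10000 UMIs. Cells were left out when they held 3 or more UMIs of the perineurial genes Cldn1, Lypd2 and Slc6a13. They were also left out at 10 or more per 10000 UMIs of the interferon-response genes Ifit1, Ifit3 and Isg15, or at 20 or more of the macrophage genes C1qa, C1qb and C1qc. The rule retained 2426 of 24873 cells, called Clec3b fibroblasts here because nearly all of them held Clec3b UMIs. Library 1 held 1223 of them, 9.71% of its barcodes (exact Clopper-Pearson 95% interval 9.20 to 10.2), and library 2 held 1203, 9.80% (9.28 to 10.3). These intervals cover counting error only.

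The series holds 2 libraries of 1 group, labelled CGSMG1 and CGSMG2, prepared with a 10x Genomics 3′ kit after enzymatic digestion and trituration of the ganglia. The mice were 7 to 8 weeks old and of both sexes in equal number, 20 animals in the series. Strain, genotype and treatment, and which animals entered which library, were not given in the sources used here. The comparisons are therefore between cells of the same suspensions. Their p-values rest on how far a difference varied between 2 libraries, moderated by a trend over all genes, and that variation may be technical. Clec3b fibroblasts held a median of 7993 UMIs per cell in library 1 and 8408 in library 2. The fibroblasts that met the same rule but stayed under 5 per 10000 UMIs of the 3 marker genes, called other fibroblasts here, numbered 1373 and 1369, with medians of 6550 and 7224 UMIs. Of all barcodes, 64 occurred in both libraries, and 1 of these was a Clec3b fibroblast in both. Scrublet marked 64 and 69 Clec3b fibroblasts as doublets, 5.23% and 5.74% of them, against 4.46% and 5.09% of all barcodes. Among other fibroblasts it marked more, 117 and 140, which are 8.52% and 10.2%. All marked cells were kept, and the fits of the comparisons were also computed without them.

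Fibroblasts of nerves and ganglia deposit the collagen and elastic matrix around axons, vessels and neuronal somata. Those of the adventitia, the outer coat of vessels, and of other loose connective tissue are known for Pi16, Dpt, Ly6a and Cd34, while fibroblasts inside nerve fascicles are known for Apod, Sox9 and Etv1. Clec3b encodes tetranectin, a plasminogen-binding secreted lectin, Inmt an enzyme that methylates indole amines, and Pcolce2 an enhancer of procollagen C-terminal processing. Dpt encodes dermatopontin, a matrix protein that binds decorin, and C7 a component of the terminal complement pathway.

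The genes that chose the cells are given as a description. Levels are in CPM, the UMIs of a gene per 1000000 UMIs of all summed cells of a population in a library. Clec3b stood at 1404 CPM in library 1 and 1379 CPM in library 2 in the Clec3b fibroblasts, and at 178 and 183 CPM in the other fibroblasts. Inmt stood at 336 and 342 CPM against 9.5 and 11.0 CPM. Pcolce2 stood at 134 and 138 CPM against 1.05 and 1.58 CPM. UMIs of Clec3b were found in 99.1% and 98.8% of the Clec3b fibroblasts, those of Inmt in 42.0% and 43.8%, and those of Pcolce2 in 25.7% and 25.2%. Nearly every cell thus held Clec3b UMIs, and most cells held none of Pcolce2. In endothelial cells, which should lack these transcripts, UMIs of Clec3b were found in 2.58% and 2.29% of cells, at median depths of 7138 and 7281 UMIs, those of Inmt in 0.954% and 0.833%, and those of Pcolce2 in 0.382% and 1.04%. Clec3b (chr9:123150946-123157432, + strand), Inmt (chr6:55170626-55175043, - strand), Pcolce2 (chr9:95637601-95698096, + strand), Dpt (chr1:164796644-164824266, + strand) and C7 (chr15:4988762-5063740, - strand) are protein-coding genes at these GENCODE M21 positions on GRCm38.

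At its lower edge the rule cut through a continuous range. The 142 and 139 cells just inside it, at 5 to 6 marker UMIs per 10000, held Dpt at 40.2 and 30.7 CPM. The 141 and 170 cells just outside it, at 4 to 5, held 20.0 and 26.8 CPM. C7 stood at 9.64 and 29.1 CPM just inside and 2.40 and 41.5 CPM just outside, and Pi16 at 3.21 and 5.65 CPM against 6.39 and 6.1 CPM. Clec3b itself stood at 514 and 514 CPM just inside and 428 and 421 CPM just outside. Dpt, C7 and Pi16 were thus low on both sides of the edge, and C7 and Dpt differed across it by unequal amounts, with C7 in opposite directions, in the 2 libraries.

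By Dpt, Pi16 and Ly6a, adventitial markers outside the rule, the label of adventitial fibroblasts fitted the upper end of the range better than the lower. Cd34 and Dpp4 differed less between the ends, and Col14a1 and Mfap5 are not given along the range. The 369 and 359 cells at 20 or more marker UMIs per 10000, 30.2% and 29.8% of all Clec3b fibroblasts, are called marker-rich here. In them Dpt stood at 904 and 863 CPM, against 45 and 41.2 CPM in the 556 and 536 cells at 5 to 10, called marker-poor. C7, which is not among the adventitial markers named above, stood at 752 and 999 CPM against 21.2 and 28.4 CPM. Pi16, a secreted peptidase inhibitor, stood at 268 and 381 CPM against 14 and 9.95 CPM. Both libraries thus placed these 3 genes mainly in the marker-rich cells. Of the UMIs of Dpt in Clec3b fibroblasts, 2542 of 3070 and 2456 of 2938 came from marker-rich cells, and of those of Pi16, 754 of 911 and 1084 of 1183. Ly6a, which encodes the surface antigen Sca-1, followed the same order, with 435 and 515 CPM against 63.2 and 78.6 CPM. Cd34 differed little along the range, at 428 and 430 CPM against 389 and 373 CPM. Dpp4, which with Pi16 marks adventitial fibroblasts of other tissues, was low throughout, at 17.8 and 25.3 CPM in marker-rich cells and 12.5 and 11.1 CPM in marker-poor cells.

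The remaining cells carried another set of genes. Apod, which encodes the lipid carrier apolipoprotein D, stood at 21440 and 22380 CPM in marker-poor cells and 2162 and 2603 CPM in marker-rich cells. Within the marker-rich cells it fell further along the range, to 307 and 246 CPM in the 168 and 165 cells at 40 or more marker UMIs per 10000. Spp1, the gene of the matrix phosphoprotein osteopontin, went from 1043 and 947 CPM in marker-poor cells to 0.75 and 3.09 CPM at 40 or more. Col15a1, a basement membrane collagen, went from 2103 and 2216 CPM to 205 and 161 CPM, and the forkhead factor gene Foxs1 from 251 and 239 CPM to 1.49 and 2.31 CPM. Cells at 10 to 20 marker UMIs per 10000 still held Apod at 18960 and 19750 CPM, close to the marker-poor cells. Of all Clec3b fibroblasts, 72.5% and 68.8% also had at least 5 per 10000 UMIs of Spp1 and Ccl11, against 36.9% and 31.5% of marker-rich cells. Of the general fibroblast genes of the rule, Col1a1 stood at 3623 and 3412 CPM in marker-rich cells and 2979 and 2887 CPM in marker-poor cells, and Lum, a keratan sulfate proteoglycan gene, at 889 and 893 CPM against 3331 and 3100 CPM.

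**Figure D1:**
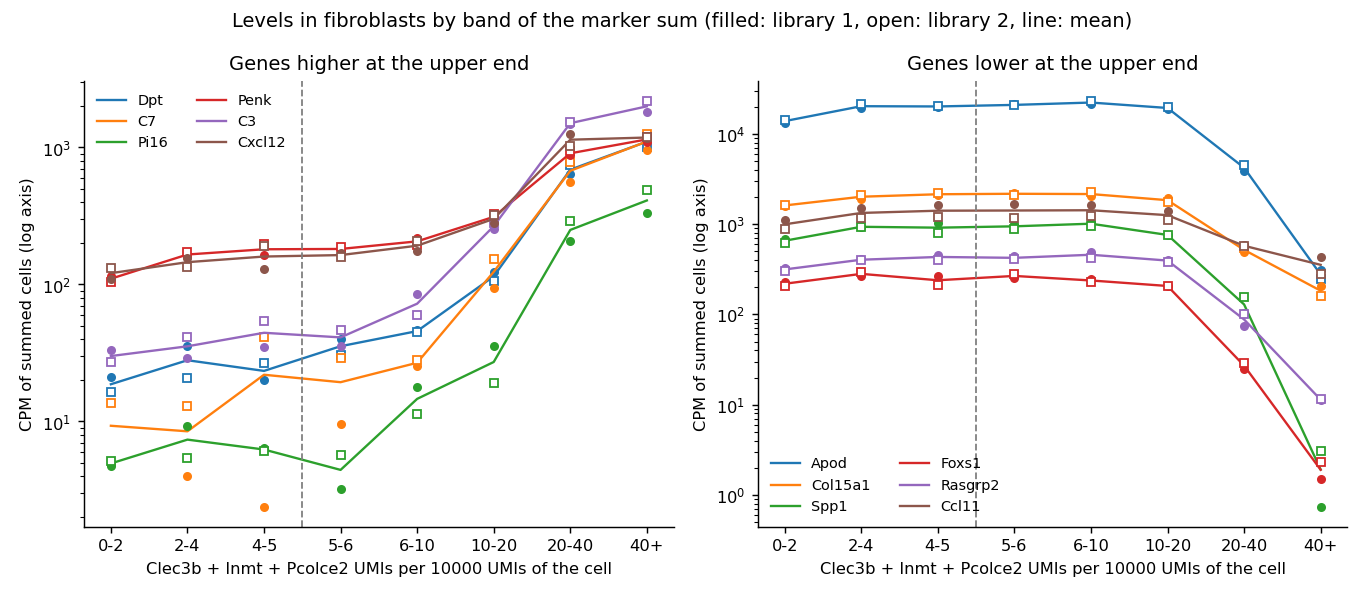
CPM (log axis) of 12 genes in fibroblasts summed by band of the Clec3b, Inmt and Pcolce2 UMIs per 10000 UMIs of the cell. Filled circles are library 1, open squares library 2, lines their mean, and the dashed line is the lower edge of the rule at 5. The levels part most above 20, where Dpt, C7, Pi16, Penk, C3 and Cxcl12 are high and Apod, Col15a1, Spp1, Foxs1, Rasgrp2 and Ccl11 are low.

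The shares of cells with a UMI gave the same order at equal depth. After each cell was thinned to 3000 UMIs, which left out 73 and 107 Clec3b fibroblasts that were shallower, Dpt UMIs were found in 70.9% and 69.1% of marker-rich cells and in 7.92% and 7.68% of marker-poor cells. Unthinned, the shares were 77.2% and 79.1% against 18.7% and 18.8%, and those in endothelial cells were 1.62% and 1.04%. Thinned shares for C7 were 44.1% and 47.1% of marker-rich cells against 3.77% and 2.83% of marker-poor cells, and 0.119% and 0.130% of endothelial cells. Thinned shares for Spp1 ran the other way, at 5.41% and 7.34% of marker-rich cells against 73.4% and 69.9% of marker-poor cells. The unthinned shares for C7 were 52.6% and 54.6% against 5.58% and 6.53%, and for Spp1 8.40% and 10.0% against 81.7% and 80.8%. Penk, which encodes the enkephalin precursor, was found in many cells of both ranges, with thinned shares of 79.0% and 77.7% against 38.9% and 39.0%, and 0.712% and 0.521% in endothelial cells.

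The promoters of Inmt, Dpt and C7 are shown as reference sequence. Dpt and C7 were high in marker-rich cells, while the level of Inmt there follows from the rule, which counts its UMIs. Windows of Pcolce2, another gene of the rule, and of Pi16, also high in these cells, were searched but are not printed. A window for Clec3b was not analysed here. The windows run from 250 bases before to 50 bases after a RefSeq transcript start on GRCm38.p6, 5′ to 3′ on the gene's strand, for Inmt at chr6:55174941-55175240 (- strand), Dpt at chr1:164796413-164796712 (+ strand) and C7 at chr15:5063724-5064023 (- strand). Capitals mark TATAAA on either strand.
Inmt: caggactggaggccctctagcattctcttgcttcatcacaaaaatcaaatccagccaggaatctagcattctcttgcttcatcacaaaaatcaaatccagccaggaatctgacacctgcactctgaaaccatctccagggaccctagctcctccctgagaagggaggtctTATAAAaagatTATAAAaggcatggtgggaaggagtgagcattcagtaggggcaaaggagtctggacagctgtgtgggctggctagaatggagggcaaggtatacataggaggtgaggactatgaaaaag
Dpt: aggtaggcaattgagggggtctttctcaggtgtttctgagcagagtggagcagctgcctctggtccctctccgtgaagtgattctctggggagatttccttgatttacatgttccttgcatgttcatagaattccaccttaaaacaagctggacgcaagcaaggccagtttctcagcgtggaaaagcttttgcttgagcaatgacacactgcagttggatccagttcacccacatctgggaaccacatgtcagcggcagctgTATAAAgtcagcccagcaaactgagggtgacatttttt
C7: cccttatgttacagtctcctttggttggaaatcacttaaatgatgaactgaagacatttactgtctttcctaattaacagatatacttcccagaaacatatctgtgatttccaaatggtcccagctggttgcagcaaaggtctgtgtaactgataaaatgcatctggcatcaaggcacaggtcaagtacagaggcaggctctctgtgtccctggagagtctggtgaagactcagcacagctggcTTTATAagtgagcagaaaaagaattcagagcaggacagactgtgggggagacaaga
TATAAA was found in 13.6% of all 32851 windows of the RefSeq table. It was also found in 1 window of Spp1, which was low in marker-rich cells, and not in those of Pi16, Pcolce2, Gdf10 or Col15a1. A match describes these letters only, and transcript starts were not measured here.

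The 3 marker genes themselves divided the cells. Most cells, 656 and 623, held UMIs of Clec3b only. A further 246 and 267 held Clec3b and Inmt, 258 and 248 held all 3 genes, and 52 and 51 held Clec3b and Pcolce2 without Inmt. The other 11 and 14 cells lacked Clec3b UMIs. Cells with Clec3b only resembled the marker-poor cells, with Dpt at 34.8 and 30.0 CPM, C7 at 9.52 and 7.03 CPM, Apod at 23330 and 24380 CPM and Col15a1 at 2340 and 2361 CPM. Cells with all 3 genes held Dpt at 906 and 839 CPM, C7 at 835 and 1115 CPM, Apod at 419 and 500 CPM and Col15a1 at 212 and 182 CPM. Cells with Clec3b and Inmt lay between, with Dpt at 163 and 200 CPM and Apod at 13120 and 14270 CPM.

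The few cells with Clec3b and Pcolce2 UMIs held the highest Pi16 level of these sets, 881 and 1275 CPM, against 187 and 189 CPM in cells with all 3 genes. They also held Ly6a at 684 and 963 CPM against 446 and 425 CPM, the fibril-associated collagen gene Col14a1 at 942 and 1001 CPM against 520 and 562 CPM, and the microfibril gene Mfap5 at 1105 and 1271 CPM against 633 and 576 CPM. Dpp4 stood at 67.1 and 77.0 CPM against 13.7 and 12.7 CPM. Elastin, Eln, stood at 568 and 630 CPM against 320 and 269 CPM. Dpt stood at 1189 and 988 CPM against 906 and 839 CPM, and Cd34 at 602 and 605 CPM against 378 and 369 CPM. These cells were 4.25% and 4.24% of the Clec3b fibroblasts. Penk ran the other way, at 365 and 414 CPM against 1075 and 1152 CPM, as did Gdf10, a ligand gene of the BMP family, at 153 and 158 CPM against 315 and 257 CPM. These sets were formed from the marker UMIs and from the same cells, so their levels carry no test.

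**Figure D2:**
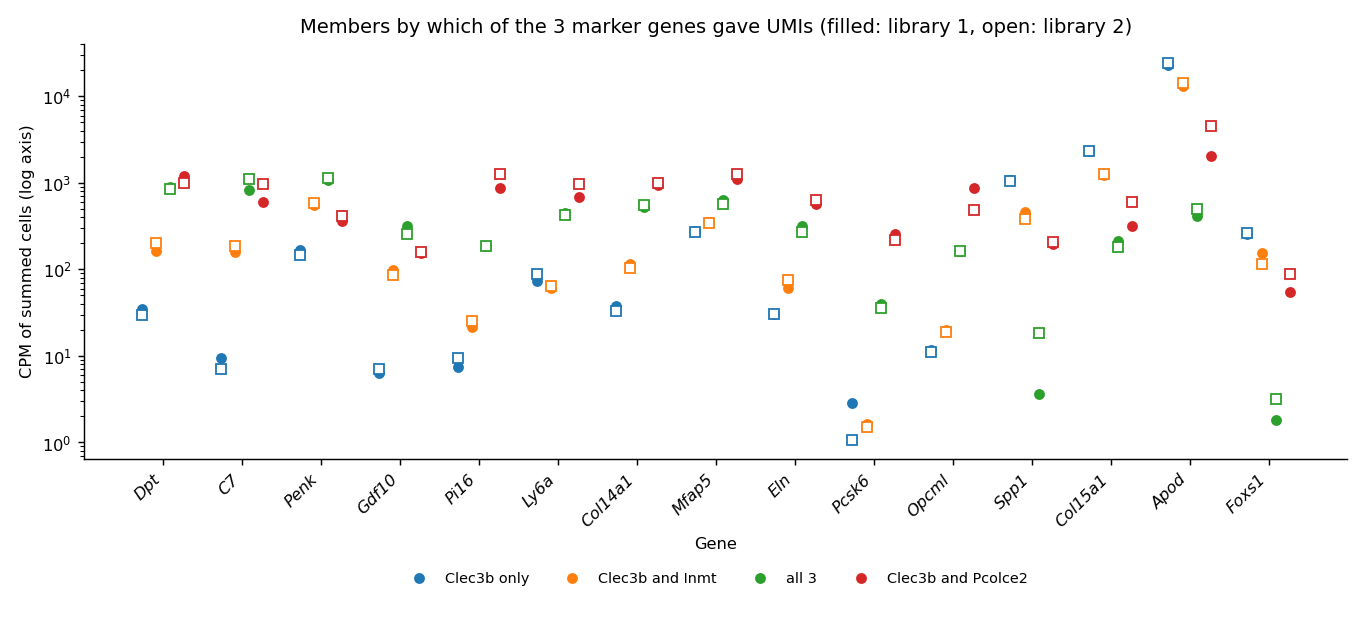
CPM (log axis) of 15 genes in Clec3b fibroblasts (members) summed by which of Clec3b, Inmt and Pcolce2 gave UMIs in the cell. Filled circles are library 1 and open squares library 2. Pi16, Ly6a, Col14a1, Mfap5, Eln, Pcsk6 and Opcml are highest in cells with Clec3b and Pcolce2, Penk and Gdf10 in cells with all 3, and Spp1, Col15a1, Apod and Foxs1 in cells with Clec3b only.

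The comparison with the other fibroblasts asks what the whole population carries beyond the genes of the rule. UMIs were summed per library, and genes that chose cells were not tested. Of 15161 genes, 1959 were higher and 1830 lower in Clec3b fibroblasts at an adjusted p under 0.05, in edgeR's quasi-likelihood test, adjusted by Benjamini-Hochberg, with the library as a block. These are 12.9% and 12.1% of the genes tested, 25.0% in all, and nothing is read from that share because the rule chose the cells. DESeq2 called 1030 genes, 690 higher and 340 lower. Since the cells were chosen by their own transcripts, these tests do not ask whether the cells are a type of their own. They ask only whether a gene differed by more than its difference varied between the libraries. That variation was judged with 20.6 prior degrees of freedom from all genes beside 1 of the gene itself. The cells were also chosen on a random part of each cell's UMIs and compared on the remainder. Then 3121 genes were called, among them 2674 of the 3789 called on all UMIs (70.6%). Of 102 named genes, 101 kept their direction and call. The named genes were picked on all UMIs, the remainder included, so that count carries little weight. Scaling by the trimmed mean of M-values raised the log2 differences by a median of 0.13 over ratios of CPM.

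The 12 leading higher genes encode complement, growth factor binding, matrix, signalling and other proteins, and those of the highest levels are given first. C3, the central complement component, stood at 555 and 592 CPM against 32.0 and 35.9 CPM, a log2 difference of 4.21 ± 0.05 (SE of the fit). Igfbp3, which binds insulin-like growth factors, stood at 332 and 269 CPM against 9.51 and 11.6 CPM, with a log2 difference of 4.94 ± 0.09. C7 stood at 244 and 323 CPM against 4.28 and 17.7 CPM, and differed by 4.81 ± 0.14. With 1 CPM added to each level, the log2 ratio of C7 was 5.53 in library 1 and 4.12 in library 2. Dpt stood at 304 and 281 CPM against 25.7 and 19.4 CPM (log2 difference 3.83 ± 0.07), and Pi16 at 90.2 and 113 CPM against 6.48 and 5.40 CPM (4.23 ± 0.11). Fbln1, which encodes the elastic fibre protein fibulin-1, stood at 178 and 168 CPM against 10.1 and 8.57 CPM (4.34 ± 0.08). The adjusted p of these genes lay between 4.9e-24 for C3 and 1.6e-17 for C7, by edgeR.

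Signalling genes were also among the leading ones. Sfrp4, a secreted Wnt inhibitor, differed by 5.41 ± 0.15 on the log2 scale, and Gdf10 by 4.0 ± 0.10. The zinc-finger factor gene Osr1 differed by 3.33 ± 0.10, and Gas1, a hedgehog co-receptor gene, by 3.14 ± 0.08. Sntg1, which encodes gamma-1-syntrophin, was another of the 12 leading genes, at 3.1 ± 0.11 on that scale. Cxcl13, which attracts B cells, stood at 166 and 116 CPM against 0.42 and 1.86 CPM and had the largest log2 difference, 6.99 ± 0.17. Its UMIs came from few cells, 5.23% and 5.90% of Clec3b fibroblasts, and 14.6% and 15.6% of marker-rich cells. In cells with Clec3b and Pcolce2 UMIs, Cxcl13 stood at 1143 CPM in library 1 and 139 CPM in library 2, so its level there differed between the libraries.

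**Figure D3:**
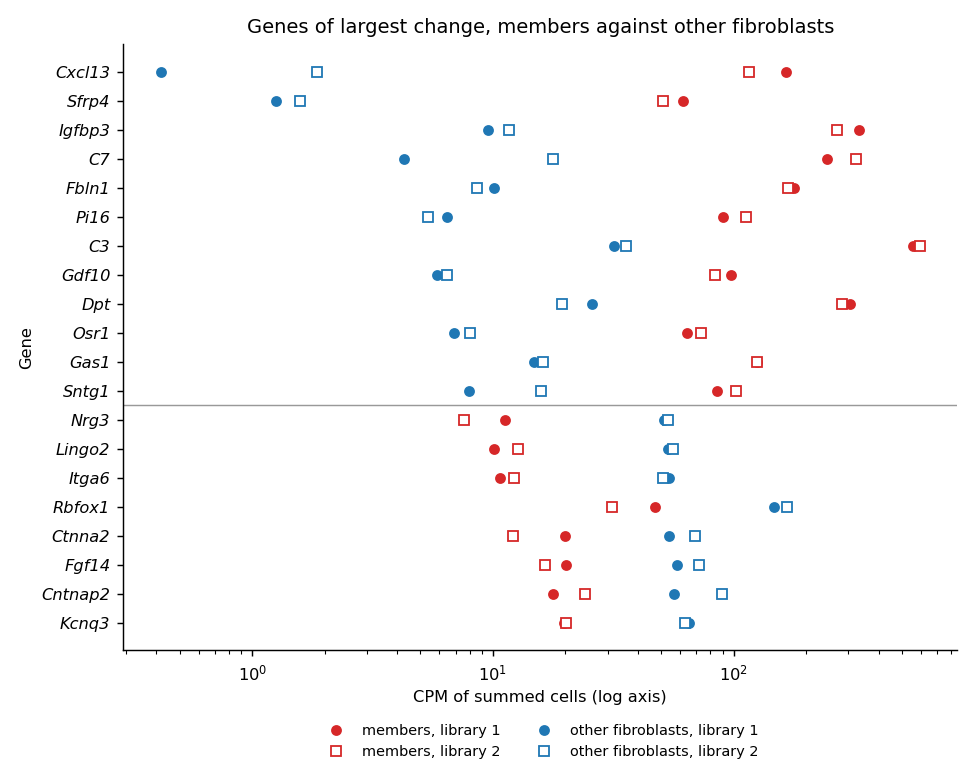
CPM (log axis) of the 12 higher and 8 lower genes of largest change, in Clec3b fibroblasts (red, labelled members) and other fibroblasts (blue). Filled circles are library 1 and open squares library 2. For each of the 20 genes both libraries of one population lie on the same side of both libraries of the other. The choice of genes by large differences of the same direction in both libraries made this likely.

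The higher levels came mainly from the marker-rich cells. These were 369 of 1223 and 359 of 1203 cells, and held 2117 of 2459 and 2843 of 3382 UMIs of C7, 2745 of 3350 and 2263 of 2815 UMIs of Igfbp3, and 4613 of 5606 and 5189 of 6192 UMIs of C3. For Fbln1 they held 1544 of 1797 and 1473 of 1751 UMIs, and for Osr1 538 of 649 and 630 of 768. Differences between the whole populations are therefore averages over unlike cells, and a smaller share of such cells and less RNA per cell cannot be told apart in the sums.

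Gene lists by role were compared by counts, beside a median log2 difference of 0.0036 and the shares of 12.9% higher and 12.1% lower over all 15161 genes. Of 27 tested genes known from adventitial and widely distributed fibroblasts, 23 were higher and 3 lower, with a median of 0.71. Col14a1 differed by 1.92 ± 0.06 and Ly6a by 2.37 ± 0.06, while Uchl1, Ebf2 and Limch1 were the lower ones. Of 16 genes known from endoneurial fibroblasts, 1 was higher and 8 were lower, with a median of -0.15. Sfrp5, another Wnt inhibitor gene, stood at 36.4 and 28.5 CPM against 74.9 and 68.2 CPM and differed by -1.02 ± 0.07. Apod, which has no passing difference here, stood at 15430 and 16340 CPM against 16100 and 17600 CPM.

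Matrix genes moved in both directions. Of 34 collagen chains, 13 were higher and 13 lower (median -0.077). The higher ones held the microfibrillar chains Col6a5, at 40.5 and 32.2 CPM against 2.30 and 5.12 CPM, and Col6a6, at 22.6 and 22.4 CPM against 3.76 and 3.91 CPM. Of 26 genes of collagen processing and crosslinking, 17 were higher and 2 lower (median 0.35). Lox and Loxl1, the crosslinking lysyl oxidases, differed by 3.62 ± 0.17 and 2.5 ± 0.10, and Pcolce, the paralog of the rule gene Pcolce2, by 0.50 ± 0.03. Of 31 elastic fibre and microfibril genes, 21 were higher and 6 lower (median 0.50), with Eln at 124 and 119 CPM against 21.7 and 25.0 CPM. Of 28 matrix proteases and inhibitors, 19 were higher and 3 lower (median 0.43). Mmp3, which encodes stromelysin-1, stood at 48.8 and 43.2 CPM against 0.31 and 0.65 CPM, that is 493 and 452 UMIs against 3 and 7. Of 23 proteoglycan genes, 10 were higher and 4 lower (median 0.16), led by the glypican gene Gpc6 at 0.96 ± 0.04.

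Secreted signals differed by list. Of 29 complement and clotting genes, 17 were higher and 2 lower (median 0.40), with C2 at 103 and 104 CPM against 35.9 and 30.7 CPM. Of 46 ligands and modulators of BMP, TGF-beta and Wnt signalling, 25 were higher and 8 lower (median 0.50). Chrdl1 and Fst, which bind BMP and activin ligands, differed by 2.31 ± 0.09 and 1.67 ± 0.08. Of 40 growth factors for nerves and vessels, 24 were higher and 5 lower (median 0.42). The lymphatic growth factor gene Vegfc stood at 22.1 and 18.0 CPM against 2.19 and 5.12 CPM and differed by 2.55 ± 0.21. Single-library log2 ratios of Vegfc, with 1 CPM added to each level, were 2.85 and 1.63. Its relative Vegfd differed by 2.0 ± 0.14, and Fgf10 by 4.07 ± 0.29, from 24.9 and 18.4 CPM against 0.31 and 2.33 CPM. Of 32 chemokines and cytokines, 11 were higher and 6 lower (median 0.063). Cxcl12, a chemokine that retains leukocytes, stood at 491 and 473 CPM against 129 and 141 CPM and differed by 1.96 ± 0.05, whereas the monocyte attractant gene Ccl2 differed by -0.88 ± 0.06. Of 28 axon guidance cues, 6 were higher and 9 lower (median -0.096). Slit2 and Slit3, ligands of Robo receptors, differed by 2.91 ± 0.10 and 1.38 ± 0.04, and Ntng1, which encodes netrin-G1, by -1.75 ± 0.12.

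Of 46 methyltransferase, retinoid, steroid and detoxification enzyme genes, Inmt itself not being tested, 26 were higher and 4 lower (median 0.33). Fmo2, a flavin monooxygenase gene, stood at 210 and 236 CPM against 41.7 and 36.4 CPM, and the aldehyde oxidase gene Aox3 at 33.2 and 29.0 CPM against 5.33 and 5.12 CPM. Rbp4, the plasma retinol carrier, differed by 2.08 ± 0.10. Of 69 mesenchymal transcription factor genes, 27 were higher and 17 lower (median 0.10). Gata6 stood at 25.8 and 25.9 CPM against 1.67 and 1.77 CPM, and Id2, which inhibits helix-loop-helix factors, at 49.2 and 41.2 CPM against 15.2 and 16.0 CPM. Of 74 receptors of signals to fibroblasts, 26 were higher and 15 lower (median 0.11), with Il11ra1, a receptor of interleukin-11, at 408 and 400 CPM against 212 and 213 CPM. Of 40 immediate early and dissociation genes, 19 were higher and 6 lower (median 0.12). Interferon-stimulated genes, some of which served to leave cells out, gave 5 higher and 1 lower of 34 (median 0.12), a higher share near that of all genes. Lipid and adipose precursor genes gave 10 higher and 8 lower of 29 (median -0.040), with the lipase gene Lpl at 0.80 ± 0.04.

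**Figure D4:**
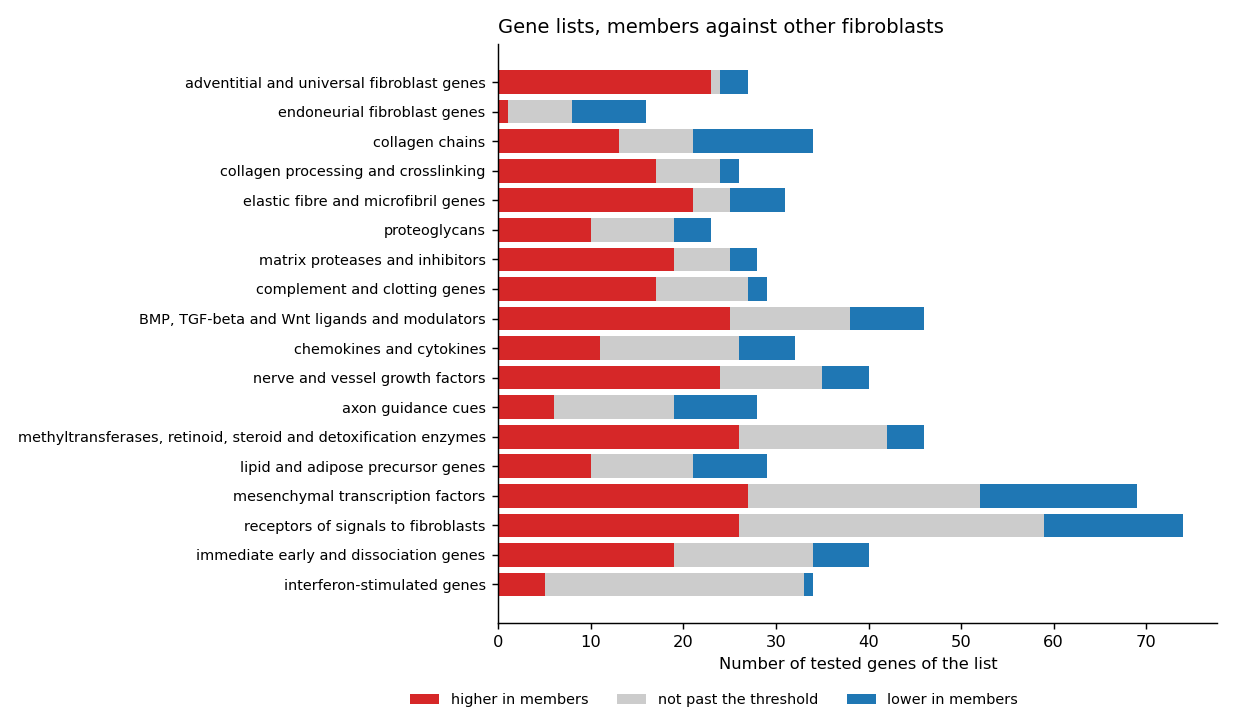
Number of tested genes in 18 lists that were higher (red), lower (blue) or not past an adjusted p of 0.05 (grey) in Clec3b fibroblasts (members) against other fibroblasts, by edgeR. Of the 27 adventitial and universal fibroblast genes 23 are higher, while the collagen chains split into 13 higher and 13 lower.

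The leading lower genes were mainly ones known from neurons. Nrg3, a ligand of ErbB4, stood at 11.2 and 7.56 CPM in Clec3b fibroblasts and 51.3 and 53.5 CPM in other fibroblasts, and differed by -2.36 ± 0.12. Rbfox1, a splicing factor gene of neurons, stood at 47.0 and 31.3 CPM against 147 and 166 CPM (-1.88 ± 0.10), and Cntnap2, an axonal adhesion gene, at 17.8 and 24.1 CPM against 56.4 and 89.4 CPM (-1.67 ± 0.08). Lingo2, Ctnna2, Fgf14 and Kcnq3 differed by -2.13 to -1.55 on the log2 scale. The integrin gene Itga6, found at the surface of perineurial and endothelial cells, differed by -2.06 ± 0.10.

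RNA of other cell types also differed between the populations, beside a share of 12.1% of all tested genes that were lower. All 13 tested neuron markers, of which Rbfox1 is 1, were lower in Clec3b fibroblasts, with a median log2 difference of -0.42. Their summed level was 1960 and 1940 CPM against 2950 and 2880 CPM. Glial markers, 11 of 14 lower, summed to 1610 and 1440 CPM against 2150 and 2090 CPM. Endothelial markers, 10 of 11 lower, summed to 92.3 and 90.7 CPM against 194 and 200 CPM. Perineurial markers, 7 of 11 lower, summed to 701 and 742 CPM against 1270 and 1260 CPM. Mural markers, 8 of 11 lower and 2 higher, summed to 406 and 468 CPM against 520 and 527 CPM. Abcc9, a potassium channel subunit gene known from pericytes, was a higher one at 29.4 and 35.3 CPM against 7.52 and 6.15 CPM. Macrophage and dendritic markers, 9 of 12 lower, summed to 162 and 402 CPM against 653 and 639 CPM. Lymphocyte and mast cell markers, 4 of 4 tested lower, summed to 57.7 and 47.3 CPM against 132 and 142 CPM. Of all these lists, Nkg7 alone was at 0 in the Clec3b fibroblasts of both libraries. Their part in the lower genes was not tested. Cells that held 10 or more per 10000 UMIs of glial, endothelial, mural or macrophage genes were more frequent among the other fibroblasts. They were 23.7% and 18.5% of those, against 8.26% and 6.82% of Clec3b fibroblasts. Without such cells, 8 of the 102 named genes lost their call, and Fabp4 and Myh11 turned direction.

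Genes of antigen presentation were uneven between the libraries. Cd74, the invariant chain, stood at 42.5 CPM in library 1 and 193 CPM in library 2 in Clec3b fibroblasts, and at 255 and 284 CPM in other fibroblasts, with a log2 difference of -1.23 ± 0.22 (edgeR adjusted p = 0.00012). Of the 2021 Cd74 UMIs in library 2, 1002 lay in the 139 cells at 5 to 6 marker UMIs per 10000. The class II genes H2-Aa and H2-Ab1 showed the same, at 18.9 and 67.7 CPM, and at 26.5 and 71.4 CPM, in the Clec3b fibroblasts. Without the barcodes marked as doublets the difference for Cd74 was 0.75 ± 0.43 and no longer passed (adjusted p = 0.24), that for H2-Aa was 0.55 ± 0.37 (0.33) and that for H2-Ab1 was 0.63 ± 0.33 (0.19), by edgeR.

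Fibroblasts with Spp1 or Ccl11 but little Dlk1 and Myoc, 459 and 481 of the other fibroblasts, are 1 of 2 groups compared in addition. The bound on Spp1 and Ccl11 does not by itself part the populations. It was reached by 72.5% and 68.8% of Clec3b fibroblasts and by 68.2% and 69.5% of other fibroblasts. Of 14449 genes, 1259 were higher (8.71%) and 1148 lower (7.95%) in Clec3b fibroblasts by edgeR, 16.7% in all, and DESeq2 called 443 higher and 209 lower. The leading higher genes were largely those above, with C7 at 6.04 and 6.62 CPM, Igfbp3 at 3.57 and 3.31 CPM and Fbln1 at 3.85 and 2.65 CPM in the Spp1 and Ccl11 fibroblasts. Of 27 adventitial genes, 20 were higher and 1 lower (median 0.57), and of 14 endoneurial genes, 0 were higher and 8 lower (median -0.31), against 0.0064 over all genes. Asic2, an acid-sensing channel gene of neurons, stood at 10.2 and 11.2 CPM against 52.7 and 57.2 CPM. Nrg3 and Rbfox1 differed by -2.99 ± 0.12 and -2.32 ± 0.11. Of 13 tested neuron markers, 6 were lower and 0 higher (median -0.14). The part of other cells' RNA in these differences was not tested. Without doublets, Cd74 went from -2.09 ± 0.19 to 1.51 ± 0.28 (edgeR adjusted p = 0.00107). H2-Aa went from -2.05 ± 0.15 to 1.25 ± 0.27 (adjusted p = 0.0037 by edgeR).

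Fibroblasts with Dlk1 or Myoc but little Spp1 and Ccl11 numbered only 51 and 57, with medians of 4383 and 4130 UMIs, and Dlk1 and Myoc UMIs were frequent in Clec3b fibroblasts as well. By the same measure of 5 per 10000 UMIs, 38.8% and 35.6% of Clec3b fibroblasts held Dlk1 and Myoc, as did 38.5% and 38.5% of other fibroblasts. Of 13731 genes, 210 were higher (1.53%) and 93 lower (0.677%) by edgeR, 2.21% in all, and scaling raised the log2 differences by a median of 0.23. Gas1 stood at 126 and 126 CPM in Clec3b fibroblasts against 6.65 and 6.39 CPM in these cells, from 2 UMIs in each library, and differed by 4.51 ± 0.46. Among the lower genes, the mast cell protease gene Mcpt4 stood at 25.4 and 19.5 CPM against 153 and 153 CPM. Its log2 difference of -2.53 ± 0.26 became 1.39 ± 0.63 in cells thinned to 3000 UMIs. Neuron markers summed to 6060 and 3880 CPM in these cells, and macrophage markers to 2070 and 118 CPM. The part of that RNA in the differences was not tested.

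Within the Clec3b fibroblasts, cells with more Clec3b than Inmt UMIs, 1082 and 1044, were set against cells with more Inmt than Clec3b UMIs, 128 and 123. Of 13651 genes, 1158 were higher (8.48%) and 955 lower (7.0%) in the Clec3b-leaning cells by edgeR, 15.5% in all, and DESeq2 called 608. In this fit edgeR gave every gene the common dispersion trend, and a gene's own deviation between libraries did not enter its p. Spp1 stood at 768 and 732 CPM in Clec3b-leaning cells and 16.2 and 44.0 CPM in Inmt-leaning cells, a log2 difference of 4.74 ± 0.19. Foxs1 stood at 191 and 187 CPM against 9.69 and 17.9 CPM, Rasgrp2, a Ras and Rap exchange factor gene, at 374 and 339 CPM against 22.6 and 55.9 CPM, and the collagen gene Col26a1 at 83.3 and 93.2 CPM against 5.38 and 11.9 CPM. Inmt-leaning cells thus held little of the genes that marked the marker-poor cells. Of the Inmt-leaning cells, 64.8% and 66.7% were marker-rich, against 26.2% and 25.8% of the Clec3b-leaning cells, so this comparison overlaps the division along the range.

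By role, 14 of 16 endoneurial genes were higher and 0 lower in Clec3b-leaning cells (median 1.80), as were 21 of 31 collagen chains with 3 lower (median 0.97), beside a median of 0.0025 over all genes. Complement and clotting genes gave 2 higher and 11 lower of 29 (median -0.32), and growth factors for nerves and vessels 3 higher and 17 lower of 38 (median -0.64). Igfbp3 stood at 272 and 200 CPM in Clec3b-leaning cells against 916 and 980 CPM in Inmt-leaning cells, and Fgf10 at 21.8 and 13.1 CPM against 56.0 and 79.8 CPM. Adventitial genes gave 10 higher and 1 lower of 27 (median 0.43).

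RNA of most, but not all, other cell types was more abundant in the Inmt-leaning cells. Scrublet marked 16 of 128 and 10 of 123 of them as doublets, 12.5% and 8.13%, against 4.34% and 5.46% of Clec3b-leaning cells. Mural markers summed to 710 and 961 CPM in Inmt-leaning cells against 375 and 421 CPM, macrophage and dendritic markers to 543 and 995 CPM against 123 and 354 CPM, and endothelial markers to 243 and 140 CPM against 77.1 and 87.0 CPM. Neuron markers summed to 2580 and 2450 CPM against 1900 and 1870 CPM, and glial markers to 2270 and 1580 CPM against 1540 and 1410 CPM. Perineurial markers were lower, at 432 and 421 CPM against 730 and 771 CPM, and lymphocyte and mast cell markers summed to 57.1 and 61.9 CPM against 58.2 and 45.1 CPM. Rgs5, a pericyte gene, had the largest difference among the genes lower in Clec3b-leaning cells, -3.40 ± 0.18 on the log2 scale. Without cells that held RNA of other cells it was 0.53 ± 0.60 (edgeR adjusted p = 0.65).

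The second comparison within the Clec3b fibroblasts set cells with more UMIs of Pi16, Dpp4 and Sema3c than of C7 and Col15a1, 104 and 103, against cells with fewer, 1035 and 1018. Col15a1 outweighs C7 in the latter sum, so the larger group is named for both genes. Of 13563 genes, 1388 were higher (10.2%) and 1539 lower (11.3%) on the Pi16 side by edgeR, 21.6% in all, and DESeq2 called 1106. Pcsk6, a proprotein convertase gene, stood at 192 and 178 CPM on the Pi16 side against 5.29 and 4.37 CPM on the other, a log2 difference of 5.15 ± 0.18. Smpd3, which encodes a neutral sphingomyelinase, stood at 286 and 347 CPM against 16.2 and 25.8 CPM. Opcml, an adhesion protein gene of the IgLON family, stood at 555 and 367 CPM against 37.0 and 38.9 CPM. Cd55, which encodes the complement decay-accelerating factor, stood at 99.3 and 161 CPM against 16.0 and 14.4 CPM. These genes were chosen for large differences of the same direction in both libraries, so their lack of overlap between the groups carries no weight.

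Apod had the highest level among the lower genes, at 597 and 473 CPM on the Pi16 side against 17790 and 18550 CPM on the C7 and Col15a1 side, a log2 difference of -5.19 ± 0.09. Col8a1, a short-chain collagen gene, stood at 4.36 and 4.46 CPM against 92.8 and 135 CPM. The cell cycle inhibitor gene Cdkn2b gave 1 UMI in each library on the Pi16 side against 617 and 592 UMIs on the other. Scgb1a1, the secretoglobin of airway club cells, gave 0 and 4 UMIs against 507 and 576. Of 24 adventitial genes, 18 were higher and 2 lower on the Pi16 side (median 1.39), and of 16 endoneurial genes, 0 were higher and 14 lower (median -3.46), beside a median of 0.0054 over all genes. The adventitial list was drawn up around Pi16 and genes known to go with it, so its direction is no independent evidence. Nor is that of the endoneurial list or of Apod. Col15a1, which helped to choose the larger group, was high in the same marker-poor cells as Apod and Spp1. Of 39 immediate early and dissociation genes, 2 were higher and 23 lower (median -0.77), with Jun at 720 and 1112 CPM against 2123 and 2365 CPM.

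Of the Pi16-side cells, 81.7% and 77.7% were marker-rich, against 22.5% and 22.7% of the C7 and Col15a1 side. Among the marker-rich cells alone, 85 and 80 fell on the Pi16 side and 233 and 231 on the other. Glial markers summed to 2030 and 1960 CPM on the Pi16 side against 1540 and 1380 CPM, and macrophage and dendritic markers to 562 and 471 CPM against 120 and 408 CPM. Perineurial markers ran the other way, at 272 and 297 CPM against 770 and 799 CPM, as did mural markers, at 257 and 315 CPM against 393 and 474 CPM. Neuron markers summed to 2390 and 1870 CPM against 1860 and 1880 CPM, endothelial markers to 50.2 and 91.5 CPM against 97.0 and 89.7 CPM, and lymphocyte and mast cell markers to 118 and 39.0 CPM against 46.0 and 46.3 CPM. All 4 tested mesothelial markers were higher on the Pi16 side, the highest of them Nkain4 at 29.5 and 13.4 CPM against 8.97 and 8.85 CPM, and the mesothelial factor gene Wt1 stood at 15.3 and 7.81 CPM against 0.81 and 0.66 CPM. The whole list of 12 summed to 159 and 26.8 CPM against 13.6 and 13.7 CPM, and the other 8 were too low to be tested. The part of this RNA in the differences was not tested.

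**Figure D5:**
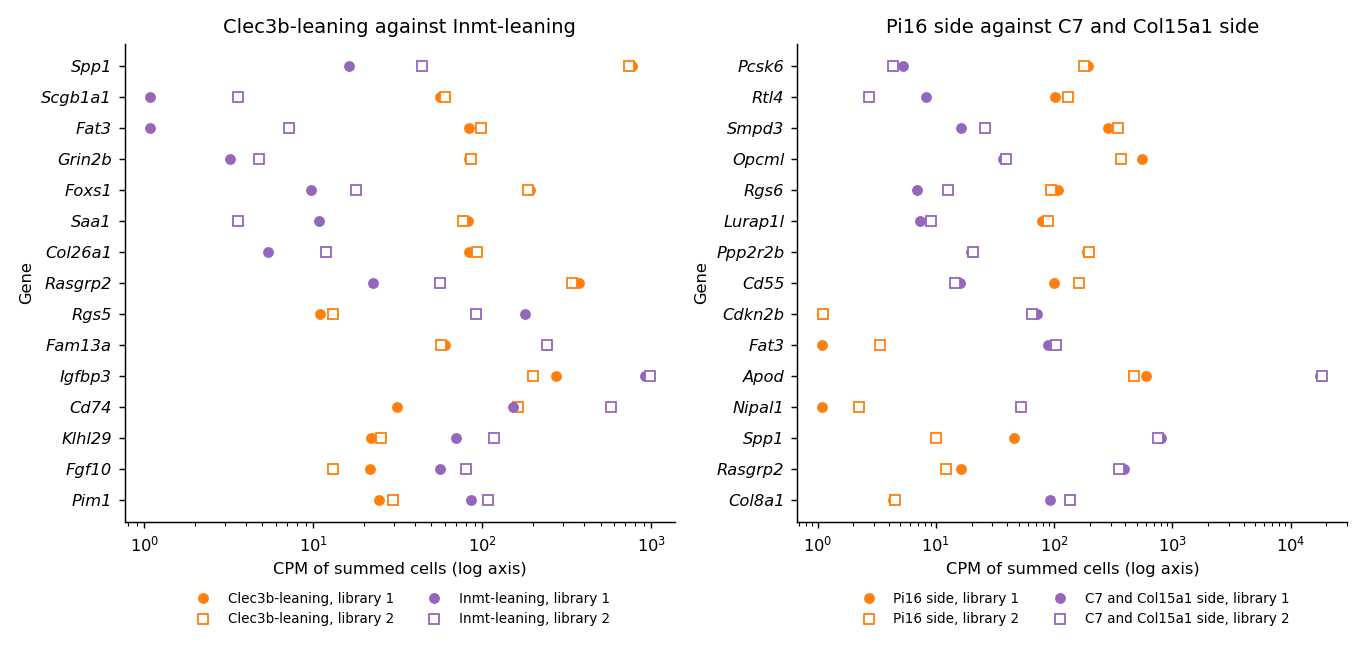
CPM (log axis) of the genes of largest change in the 2 comparisons within Clec3b fibroblasts. Left, Clec3b-leaning against Inmt-leaning cells, and right, the Pi16 side against the C7 and Col15a1 side, with library 1 filled and library 2 open. Scgb1a1 is not drawn on the right because 1 library held 0 UMIs of it. On the left Cd74 overlaps between the groups. The genes were chosen for large differences of the same direction in both libraries, so a lack of overlap in the others carries no weight.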

How the data were processed

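The deposited files hold raw UMI counts of genes by barcodes. The submitters' processing notes name Cell Ranger 6.1.2 and mm10, and cell filters were not given in the sources used here. Cells were chosen by the rule above on these counts, with no clustering. Doublets were marked with Scrublet in scanpy 1.11.5. Counts were summed per library and population, so each comparison rests on 4 sums and 1 residual degree of freedom per gene. Low genes were removed by filterByExpr, sums were scaled by TMM (the trimmed mean of M-values), and edgeR 4.0.16 (R 4.3.3) gave the tests. DESeq2 1.42.0 was an alternative. On simulated counts for the comparison with other fibroblasts, edgeR called 100% of 4-fold, 66.0% of 2-fold and 18.0% of 1.5-fold changes, and 7 unchanged genes of 15107 tested. The simulation gave all genes the same assumed dispersion and both populations the same library effect. It changed only genes with ample UMIs and did not choose cells by their transcripts. These rates are therefore not the error rates of the real comparisons. The replicate number pairs the samples, because both populations come from the same suspension.

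The genes named are those of largest log2 difference past the threshold with the same direction in both libraries and at least 50 CPM, 12 higher and 8 lower against other fibroblasts and 8 each elsewhere. In each list, up to 4 genes of at least 20 CPM were also named. Further genes (Uchl1, Ebf2, Limch1, Apod, Jun, Nkain4 and Wt1) and the levels by band or set of marker UMIs were chosen after their values were seen. The members and lists were chosen with earlier results of these data known. The bounds of 5 per 10000 UMIs for the Spp1, Ccl11, Dlk1 and Myoc populations are choices of this work. Endothelial cells were barcodes under the fibroblast bound with at least 10 per 10000 UMIs of Pecam1, Cdh5 and Flt1. Barcodes with much fibroblast RNA were thus left out of them, which can lower their shares of fibroblast transcripts. In Clec3b fibroblasts mesothelial markers summed to 27.6 and 15.6 CPM, and adipocyte and adrenal cortex markers to 3.07 and 3.06 CPM. Some genes of the lists are not reported here.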

Additional observations from a re-analysis of the deposited data

How the results depend on the processing

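Against other fibroblasts, where 3789 genes were called, DESeq2 called 1030, the fit with no replicate block 2405 and cells thinned to 3000 UMIs 2497. All 1030 DESeq2 calls were among those of edgeR, with the same direction, and 67.0% of them were higher. Against Spp1 and Ccl11 fibroblasts (2407 called), DESeq2 called 652, separate UMIs for choosing and summing 1513 and thinned cells 1300. Against Dlk1 and Myoc fibroblasts (303), DESeq2 called 186, no filter on low counts 580, a stricter choice of cells 639, thinned cells 571 and the fit without cells holding RNA of other cells 492. For Clec3b-leaning against Inmt-leaning cells (2113), DESeq2 called 608, separate UMIs 1321, stricter cells 1262 and thinned cells 988. For the Pi16 side against the C7 and Col15a1 side (2927), DESeq2 called 1106, stricter cells 1621 and thinned cells 1013. The cause of these shifts was not tested. Without the replicate block, in which the libraries pair the samples, the other 4 comparisons called 1605, 284, 1869 and 2868 genes. With 1 library left out there is no test, and between 3707 and 3734, 2398 and 2405, 303 and 303, 2100 and 2106, and 2911 and 2923 called genes, in the order above, kept their direction. The fitted difference was also set against the CPM ratio of the library left, by the spread between libraries. The 2 lay further apart for 59 and 55 of the 102 genes named against other fibroblasts, without library 1 or 2. Against Spp1 and Ccl11 fibroblasts this held for 6 and 8 of 16. The ratio had 1 CPM added and no TMM scaling, so the counts do not show what leaving out a library does. Osr1, fitted at 3.33, counts among them with ratios of 3.05 and 3.05. With 1 CPM added to each level, log2 ratios in library 1 and 2 alone against other fibroblasts were 6.88 and 5.35 for Cxcl13. They were 4.30 and 2.54 for Fgf10, and 3.65 and 2.44 for Col6a5. Between Clec3b-leaning and Inmt-leaning cells they were 5.49 and 4.03 for Spp1 and 3.99 and 2.58 for Rasgrp2. The added CPM makes ratios smaller where a level is low, so these lie below plain ratios of the CPM.

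Clec3b fibroblasts were 5.30% and 5.43% of barcodes at 10 or more marker UMIs per 10000, and 8.91% and 9.13% without cells holding RNA of other cells. After thinning they were 1140 and 1095 cells, 10.8% and 10.9% of only the 10594 and 10060 barcodes with at least 3000 UMIs. Log2 differences that turned against other fibroblasts were Cd74 (0.75), H2-Aa (0.55) and H2-Ab1 (0.63) without doublets, and Fabp4 (0.24) and Myh11 (0.21) without cells holding RNA of other cells. Against Spp1 and Ccl11 fibroblasts, Cd74 (1.51) and H2-Aa (1.25) turned without doublets. Against Dlk1 and Myoc fibroblasts, Mcpt4 (1.39), Cma1 (0.19) and Cntnap2 (1.23) turned in thinned cells. Between Clec3b-leaning and Inmt-leaning cells, Rgs5 (0.53) turned without cells holding RNA of other cells. The cause was not tested. Of the 102 genes named against other fibroblasts, 89 kept their call in DESeq2, 99 in thinned cells and 102 in stricter cells. The stricter choice took Clec3b fibroblasts at 10 or more marker UMIs per 10000 and other fibroblasts under 2. It left out the cells between these bounds, which widens the contrast, so the count for stricter cells carries little weight.

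The design holds 2 libraries of 1 group, so nothing here compares conditions, and the spread rests on 1 residual degree of freedom per gene plus the trend over genes. The Dlk1 and Myoc fibroblasts numbered 51 and 57 cells, in which several leading genes gave 0 to 4 UMIs. Free RNA was not removed. Against Dlk1 and Myoc fibroblasts, DESeq2 gave an adjusted p for 8 of the 16 named genes.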
